A study of Mus musculus with 2 samples.

Results

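The cells described are maturing osteoclasts, picked out by high levels of Acp5 and Ctsk in cultures of mouse bone marrow. A barcode counted as a cell when it held at least 800 unique molecular identifiers (UMIs, the counted RNA molecules), at least 300 genes and at most 10% mitochondrial UMIs. A cell was a member when Acp5 and Ctsk together gave at least 0.1% of its UMIs and the neutrophil genes S100a8 and S100a9 together gave less than 3%. Of 16657 cells, 1920 (11.5%) were members, 771 in the library from the culture with dihydrotestosterone (DHT) and 1149 in the library from the vehicle culture. The levels of Acp5, Ctsk, S100a8 and S100a9 chose the members and are given only as a description.

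Osteoclasts are the cells that resorb bone. They arise from precursors of the monocyte lineage when the cytokine RANKL binds its receptor RANK and, with signals from the M-CSF receptor, switches on the transcription factor Nfatc1. The maturing cell then makes tartrate-resistant acid phosphatase (Acp5) and the collagen-degrading protease cathepsin K (Ctsk), fuses with its neighbours, and pumps acid onto bone through the vacuolar proton pump (V-ATPase). Type I interferons are antiviral cytokines known to restrain osteoclast formation, and their target genes serve as a readout of interferon signalling.

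Both cultures came from the marrow of 1 wild-type male C57BL/6J mouse aged 3 months, and each gave 1 library of the same labelled batch, whose cell type label is osteoclast precursors. The marrow cells spent 48 h in medium depleted of hormones with 5 ng/mL M-CSF, and then 24 h with 100 ng/mL M-CSF, 30 ng/mL RANKL and 10 ng/mL human TNF. DHT, an androgen, was present at 1 nM throughout in one culture, and the other received an equal volume of ethanol, the vehicle. Only adherent cells were collected, with EDTA for 10 min and a scraper. With 1 library per group and 1 mouse, no difference between DHT and Vehicle has a replicate check and no test was made, and a difference between these libraries cannot be told apart from a difference between the dishes or the preparations. Every interval is at the 95% level and reflects the counting of UMIs or cells alone.

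Members were among the deeper cells. The DHT members held 43593169 UMIs (median 56362 per cell) and the Vehicle members 72546919 (median 61624), against medians of 30837 and 51289 UMIs over all cells of these libraries. Members of fewer than 5000 UMIs numbered 136 in DHT (17.6%) and 94 in Vehicle (8.18%). They held 0.370% and 0.170% of the members' UMIs, and 106 and 70 members passed the rule with only 1 or 2 Acp5 and Ctsk UMIs. Scrublet called 18 members of each library as doublets. The libraries shared 33 barcodes, of which 1 was a member in both.

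With DHT, 771 of 7911 cells were members, 9.75% (exact binomial bounds 9.10 and 10.4%). With Vehicle it was 1149 of 8746, or 13.1% (12.4 and 13.9%), which makes the DHT share 0.742 times the Vehicle share. The DHT library held more cells with S100a8 and S100a9 at 3% or more, 1978 against 1136. Among cells below that limit members were 12.995% (12.1 to 13.9%) with DHT and 15.1% (14.3 to 15.9%) with Vehicle, a ratio of 0.861. The ratio lay between 0.664 and 0.861 in every setting tried. Depth and the number of neutrophil cells differed between the libraries, and their part in the share was not tested.

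**Figure D1:**
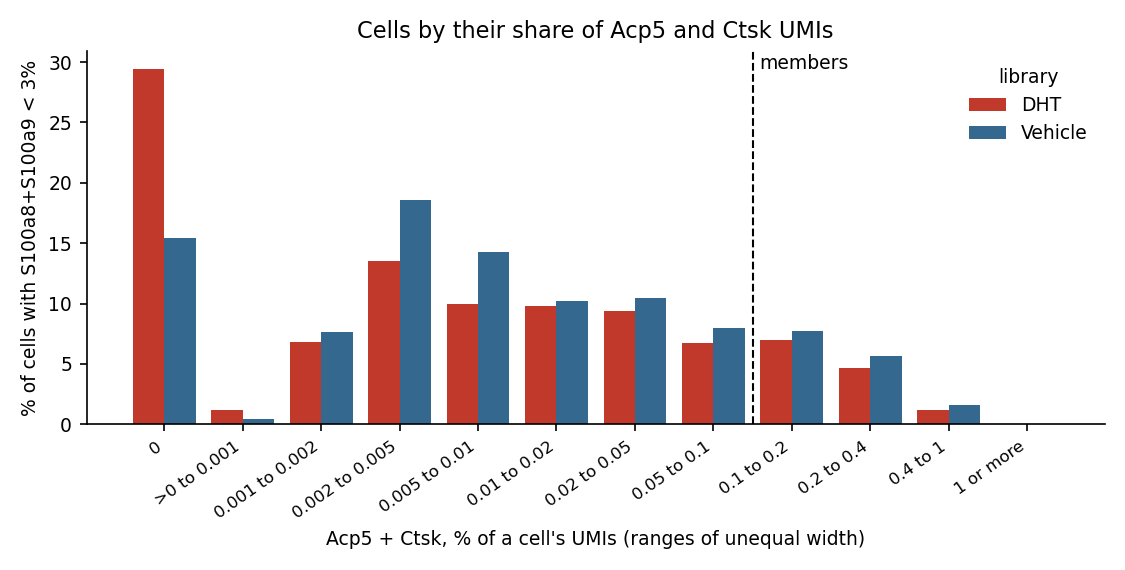
Percent of the cells with S100a8 and S100a9 below 3% in each library (vertical axis) that fall in each range of the share of UMIs from Acp5 and Ctsk (horizontal axis, ranges of unequal width), for DHT and Vehicle. Members lie right of the dashed line, where the bars are lower with DHT up to 1%; 4 DHT and 3 Vehicle cells lie at 1% or more.

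The share of Acp5 and Ctsk ran on without a gap at the 0.1% limit. Its median was 0.188% in DHT members and 0.197% in Vehicle members, and the highest members reached 2.80% and 2.00%. In the comparison cells, those below 0.1% with S100a8 and S100a9 under 3% (5162 in DHT and 6461 in Vehicle), the median was 0.00304% and 0.00508%. Acp5 was at 712 and 623 CPM (UMIs of a gene scaled to a common total of UMIs) in the 137 DHT and 180 Vehicle members from 0.1 to 0.12%, and at 504 and 554 CPM in the 159 and 203 cells from 0.08 to 0.1%. These Acp5 levels follow from the ranges themselves. Atp6v0d2, which the rule does not use, was at 430 and 464 CPM in these members and at 317 and 399 CPM in these cells below the limit. The members are thus a range of cells cut at a limit, and whether they form a separate cluster was not tested.

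Over all members Acp5 was at 1409 CPM with DHT (1398 to 1420) and 1339 CPM with Vehicle (1331 to 1348), a log2 ratio of 0.07. Ctsk was at 1191 CPM (1181 to 1202) and 1253 CPM (1245 to 1261), a log2 ratio of −0.07. CPM here are UMIs summed over the members of a library and divided by their total. Acp5 lies on chromosome 9 (22126727 to 22135711) and Ctsk on chromosome 3 (95499256 to 95509362) of GRCm38, the mouse assembly also named mm10.

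The other 3 osteoclast markers were not used by the rule, and all 3 were high in members of both libraries. Atp6v0d2, a V-ATPase subunit needed for osteoclast fusion (chromosome 4, 19876841 to 19922605), was at 642 CPM with DHT and 662 CPM with Vehicle, against 61.5 and 91.4 CPM in comparison cells. Slc9b2, a sodium-proton exchanger of osteoclasts (chromosome 3, 135307700 to 135345387), was at 440 and 410 CPM in members and at 41.4 and 51.2 CPM in comparison cells. Dcstamp, the fusion receptor DC-STAMP (chromosome 15, 39745930 to 39760938), was at 213 and 215 CPM in members and at 38.2 and 53.2 CPM in comparison cells. In each library the 3 genes were therefore higher in members, and the DHT and Vehicle members lay close together, with log2 ratios of −0.04, 0.10 and −0.01. The same limit of Acp5 and Ctsk chose the members of both libraries, so levels of genes that rise with that share are not free of the rule. In comparison cells the median log2 ratio of the 3 genes was −0.48, lower with DHT.

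Because a cell with more UMIs shows more genes, each cell was also thinned to 5000 UMIs, which left 635 DHT and 1055 Vehicle members and left out 136 and 94. Atp6v0d2 was then found in 87.6% of DHT members (84.7 to 90.03%) and 89.2% of Vehicle members (87.2 to 91.0%). Neutrophil cells, those with S100a8 and S100a9 at 3% or more, should lack the gene and showed it in 4.48% and 4.97%, a background level. Neutrophil cells were shallower than members before thinning, with medians of 15648.5 and 11650.5 UMIs. Without thinning the members' shares were 84.0% and 93.3%. Slc9b2 was found in 76.5% and 74.98% of thinned members against 2.79% and 3.48% of neutrophil cells, and Dcstamp in 57.2% and 58.8% against 2.11% and 3.38%. In comparison cells Atp6v0d2 was found in 15.2% and 22.6%, so those cells are not free of the osteoclast markers.

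Calcr and Itgb3, markers of late osteoclasts, were scarce. Calcr, the calcitonin receptor, had 6 UMIs in DHT members and 4 in Vehicle members, and after thinning it was found in 0 of 635 DHT members, which allows a share of up to 0.472%, and 1 of 1055 Vehicle members. Itgb3, the beta chain of the vitronectin receptor, was found in 2.20% and 1.52% of thinned members, below its 5.43% and 6.16% in neutrophil cells. Nfatc1, the master regulator of the lineage, was at 860 and 799 CPM. The label of maturing osteoclasts thus fits the early markers, with Calcr and Itgb3 near or at 0 in most members. Genes of resorption were not scarce, with Mmp9 at 966 and 612 CPM and Car2 at 105 and 94.6 CPM.

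Members held little RNA of most other cell types. All 10 macrophage markers were at least 2-fold lower than in comparison cells of both libraries, with summed levels of 147 and 100.5 CPM against 739 and 461 CPM, and so were all 5 progenitor markers and 5 of 6 monocyte markers. Plasmacytoid dendritic, T and NK, erythroid, mast cell and stromal markers each summed to between 0.0688 and 3.19 CPM in members. Of these, Cd3e and Hbb-bs were at 0 in both libraries. Megakaryocyte and B lineage markers summed to 311 and 249 CPM and to 9.24 and 5.90 CPM, below the comparison cells of the same library. Neutrophil markers were at 1148 CPM with DHT and 741 CPM with Vehicle in summed level, against 1564 and 762 CPM in comparison cells. These sums include S100a8 and S100a9, which the rule limits. In all barcodes S100a8 was at 14370 CPM with DHT and 4590 CPM with Vehicle, and members held it at 2.92% and 5.74% of these levels. The rule itself sets a low S100a8 level in members, so nothing is read from it.

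The next comparison was between members and comparison cells within each library. Of 6666 genes with at least 20 CPM, 175 (2.63%) were at least 2-fold higher in members of both libraries and 311 (4.67%) were at least 2-fold lower. Among the 10865 genes with at least 2 CPM, the limit used for the gene lists, the shares were 3.15% and 7.72%. The rule itself divides these cells, so the differences describe the members and nothing is read from the counts. Against cells from 0.05 to 0.1%, the nearest below the limit, only 31 genes were at least 2-fold higher.

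Genes of acid secretion and resorption were mostly higher in members. Of 14 measured genes of this list 9 were at least 2-fold higher than in comparison cells of both libraries and none was as much lower. Car2, the carbonic anhydrase that supplies protons, was at 105.3 CPM with DHT and 94.6 CPM with Vehicle against 13.8 and 13.1 CPM, log2 ratios of 2.93 and 2.86. Slc37a2, a sugar phosphate transporter of osteoclasts, was at 400 and 399 CPM against 72.1 and 81.5 CPM. Slc4a2, the bicarbonate-chloride exchanger, was at 111 and 100.2 CPM against 27.7 and 29.6 CPM. Clcn7, the proton-chloride exchanger of the ruffled border, had log2 ratios of 1.19 and 0.90. Cst3, a secreted inhibitor of cathepsins, was at the same level in members and comparison cells, with log2 ratios of −0.01 and 0.04.

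The V-ATPase was higher as a whole, and unevenly so. The summed level of its 17 listed subunits and accessory proteins was 9008 CPM in DHT members and 9191 CPM in Vehicle members, against 4086 and 4550 CPM in comparison cells. The median log2 ratio was 1.01 and 0.96, against 0.02 and −0.01 over all genes measured. Atp6v0d2 had the highest ratio (3.39 and 2.86), followed by Atp6v1b2 (1.93 and 1.73) and Atp6v1d (1.83 and 1.83), both of the ATP-hydrolysing V1 part. Tcirg1, the a3 subunit that places the pump at the ruffled border, was at 348 and 324 CPM, with log2 ratios of 1.14 and 1.00. Atp6v0a1, which encodes another isoform of the same subunit, went the other way, at 8.58 and 7.77 CPM against 24.1 and 16.7 CPM. Per cell, the median summed level was 8136 CPM with DHT (quartiles 6601 and 9953) and 8637 CPM with Vehicle (7318 and 10158).

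Promoter sequences are shown for this group because the letters of 1 motif recur in some of its genes. Windows from 250 bases before to 50 bases after the start of each gene came from RefSeq (GRCm38.p6). TCACGTG, the core of the site that the Mitf and Tfe3 family binds, was searched on both strands. It was found in 4 of 12 V-ATPase genes with a window (Atp6v0b, Atp6v0d1, Atp6v0e and Atp6v1a) and in 4 of 15 genes of the lysosome list (Ctsa, Ctsd, Lgmn and Lamp1), against 1160 of 27025 genes (4.29%) and 3.77% of all 32851 windows of this length. Clcn7, added after its match was seen, holds it close to its start. Capitals mark the match, and in Atp6v1a it reads on both strands. The Atp6v1a window lies on the minus strand (chr16:44139339-44139436) and its match ends 124 bases before the start; the Clcn7 window lies on the plus strand (chr17:25133330-25133390) and its match ends 9 bases before it.
Atp6v1a: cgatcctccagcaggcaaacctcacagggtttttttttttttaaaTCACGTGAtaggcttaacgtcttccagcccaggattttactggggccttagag
Clcn7: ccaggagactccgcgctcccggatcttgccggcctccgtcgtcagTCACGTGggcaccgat
Atp6v1a was at 501 and 465 CPM in members against 206 and 206 CPM in comparison cells. Atp6v1d and Tcirg1, whose windows lack the letters, were also higher in members. Whether the letters go with the level was not tested. Mitf, a factor of this family and itself an osteoclast regulator, was at 703 and 688 CPM against 304 and 368 CPM, and Tfe3 at 35.1 and 29.8 CPM against 41.1 and 33.8 CPM. The lysosome list shares the letters but not the direction. Of its 19 genes none was 2-fold higher in members and 4 were lower, among them Ctsl (426 and 540 CPM against 1371 and 1498 CPM) and Ctsc (29.9 and 23.4 CPM against 275 and 145 CPM). Lamp1, with the letters in its promoter, was at 251 and 246 CPM against 423 and 424 CPM.

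Transcription factors of the lineage were higher in 6 of 15 cases and lower in none. Ppargc1b, a coactivator of mitochondrial genes in osteoclasts, was at 260 and 258 CPM against 43.1 and 52.6 CPM. Fosl2, of the AP-1 family, was at 333 and 288 CPM against 68.9 and 78.0 CPM, and Nfatc1 at 860 and 799 CPM against 198 and 256 CPM. Jdp2, another AP-1 protein, was at 1321 and 1165 CPM against 471 and 550 CPM. Repressors of differentiation lay lower in 5 of 9 cases and higher in none. Irf8, which holds back Nfatc1, was at 7.32 and 6.97 CPM against 84.3 and 52.0 CPM. Irf8 is also a gene of macrophages and monocytes, whose markers were lower in members as well.

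Of the receptor and signalling list 2 of 17 genes, Oscar and the kinase Tec, were at least 2-fold higher in members and none was as much lower. Tnfrsf11a, the receptor RANK, was at 301 and 310 CPM against 216 and 251 CPM, and Csf1r, the M-CSF receptor, at 353 and 332 CPM against 264 and 249 CPM. Oscar, a collagen-binding co-receptor of osteoclasts, was at 6.15 and 5.96 CPM against 0.178 and 0.325 CPM, with log2 ratios of 5.11 and 4.20. Trem2, a co-receptor of the same signalling adaptor family, was lower in members by less than 2-fold. Of the adhesion and sealing zone list 5 of 19 genes were higher and none lower. Src, the kinase needed for the ruffled border, was at 137 and 118 CPM against 24.0 and 26.1 CPM, and Itgav, the alpha chain of the vitronectin receptor, at 731 and 710 CPM against 259 and 328 CPM. The fusion list went both ways, with 4 of 11 genes higher, among them Ocstamp (136 and 121 CPM against 23.3 and 28.0 CPM), and 3 lower, among them Cd81 (13.4 and 16.8 CPM against 63.4 and 62.3 CPM), a tetraspanin, and Cd47, a ligand of Sirpa (94.2 and 89.1 CPM against 225 and 187 CPM).

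Mitochondrial energy genes were higher by a smaller and even step. None of 38 oxidative phosphorylation genes reached 2-fold, and the list's median log2 ratio was 0.50 with DHT and 0.48 with Vehicle. Its summed level was 19481 and 20245 CPM in members and 13954 and 14831 CPM in comparison cells. Of the S phase list (22 genes) and the G2 and M phase list (24 genes) none was 2-fold apart in both libraries. The S phase medians were −0.68 and −0.50, and the G2 and M phase medians −0.22 and −0.62. Of the list of cell cycle inhibitors and D cyclins, 4 of 8 genes were at least 2-fold lower, with medians of −1.10 and −1.07. Ccnd1, cyclin D1, was at 147 and 124 CPM against 564 and 536 CPM.

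The genes that most set members apart from comparison cells were mostly not classical osteoclast genes. Mt3, a metallothionein that binds zinc, led with 58.4 CPM in DHT members and 81.5 CPM in Vehicle members against 0.652 and 1.34 CPM, log2 ratios of 6.49 and 5.92. Nyap2, a phosphoprotein known from neurons, followed at 25.7 and 24.3 CPM (log2 ratios 5.10 and 4.94), then Kbtbd11 at 63.6 and 60.4 CPM (4.73 and 4.40). Myo1d, an unconventional myosin, was at 133 and 163 CPM, and Cd200, a surface ligand that signals to myeloid cells, at 118 and 95.5 CPM. Others among the 20 highest were Ank2, Spns2 (a sphingosine-1-phosphate transporter), Rufy4, Slc9b2, Zfp827, Nudt22, Atp6v0d2, Car2, Adcy3, Edil3, Plcb4, Bdh2, Ccser1 and Fam110b. Edil3, a ligand of the vitronectin receptor, was at 141 and 152 CPM against 15.5 and 21.8 CPM. Cx3cr1, the fractalkine receptor of monocytes and macrophages, was the lowest when genes were ranked by the library of smaller difference, at 2.75 and 2.30 CPM against 54.0 and 36.5 CPM. Plac8 was lower still in DHT (log2 ratio −4.50) and Ccl2 in Vehicle (−4.54). The 20 lowest also included C1qa (4.50 and 1.47 CPM against 62.0 and 25.9 CPM), Ly6c2 (33.7 and 20.5 CPM against 483 and 212 CPM) and Lyz2 (871 and 872 CPM against 10276 and 7345 CPM).

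Members were next divided by their own share of Acp5 and Ctsk. From 0.1 to 0.2% there were 416 DHT and 589 Vehicle members (54.0% and 51.3%), from 0.2 to 0.4% 279 and 432 (36.2% and 37.6%), and at 0.4% and over 76 and 128 (9.86% and 11.1%). Of 6353 genes with at least 20 CPM, 60 (0.944%) were at least 2-fold higher at 0.4% and over than at 0.1 to 0.2% in both libraries, and 47 (0.740%) at least 2-fold lower. These ranges are cut from the value that chose the members, so the order of the levels is a description. The 3 ranges had median depths of 50812, 61691 and 68419.5 UMIs in DHT and 57376, 64179 and 76117 UMIs in Vehicle, so the ranges of higher share held deeper cells.

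Atp6v0d2 was higher at each step of the share, going from 501 to 706 to 992 CPM in DHT members and from 531 to 720 to 928 CPM in Vehicle members. Slc9b2 went from 351 to 474 to 679 CPM and from 306 to 451 to 633 CPM, and Dcstamp from 184 to 228 to 280 CPM and from 187 to 224 to 281 CPM. The summed V-ATPase level went from 7691 to 9472 to 12706 CPM with DHT and from 7919 to 9638 to 12091 CPM with Vehicle. Nfatc1 had a different course. It was at 169 and 219 CPM in cells below 0.05%, already at 572 and 592 CPM from 0.05 to 0.1%, and at 788, 934 and 907 CPM (DHT) and 755, 832 and 850 CPM (Vehicle) in the member ranges.

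A second group rose more steeply in CPM toward the highest range of members. Itgb3 was at 0.428, 3.30 and 77.7 CPM with DHT and at 0.451, 5.51 and 31.5 CPM with Vehicle, and Mt3 at 20.5, 35.8 and 282 CPM and at 26.8, 93.3 and 227 CPM. Myo1d went from 51.7 to 124 to 482 CPM and from 72.0 to 190.4 to 385 CPM, and Oscar from 2.29 to 6.60 to 19.9 CPM and from 1.66 to 5.64 to 21.0 CPM. Mst1r, a receptor kinase of the MET family, and Tgfbr2, the type II receptor of TGF-beta, were among the 60 higher genes, with Tgfbr2 at 28.7, 56.9 and 138 CPM and at 32.9, 65.8 and 118 CPM. Car2 did not keep 1 order, at 98.7, 118 and 90.9 CPM with DHT and 75.9, 97.0 and 149 CPM with Vehicle.

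Few listed cell cycle genes were 2-fold lower at 0.4% and over than at 0.1 to 0.2% in both libraries. They were 0 of 19 S phase genes, 1 of 24 G2 and M phase genes and 1 of 5 cell cycle inhibitors and D cyclins, while all 3 tested progenitor markers were lower. In summed level both phase lists fell at each step. The G2 and M phase sum was 3085, 2603 and 1652 CPM with DHT and 2542, 2275 and 1569 CPM with Vehicle. For S phase the sum was 1421, 1213 and 893 CPM and 1437, 1264 and 891 CPM. Ccnd1 was at 202, 105.2 and 66.8 CPM with DHT and at 169.6, 99.9 and 46.5 CPM with Vehicle. Mki67, which marks proliferation, stood at 268, 223 and 133 CPM and at 234, 191 and 134 CPM. In members thinned to 5000 UMIs Mki67 was found in 50.8%, 41.5% and 31.4% (DHT) and in 47.7%, 36.6% and 27.4% (Vehicle), and in 32.4% and 35.7% of neutrophil cells, so these cells do not give a background level for it. Mir99ahg, a microRNA host gene, was at 359, 191 and 74.5 CPM and at 364, 192 and 82.0 CPM. Ctsl was at 525, 354 and 269 CPM and at 633, 477 and 420 CPM, while the oxidative phosphorylation sum went up to 23126 and 24016 CPM in the highest range.

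**Figure D2:**
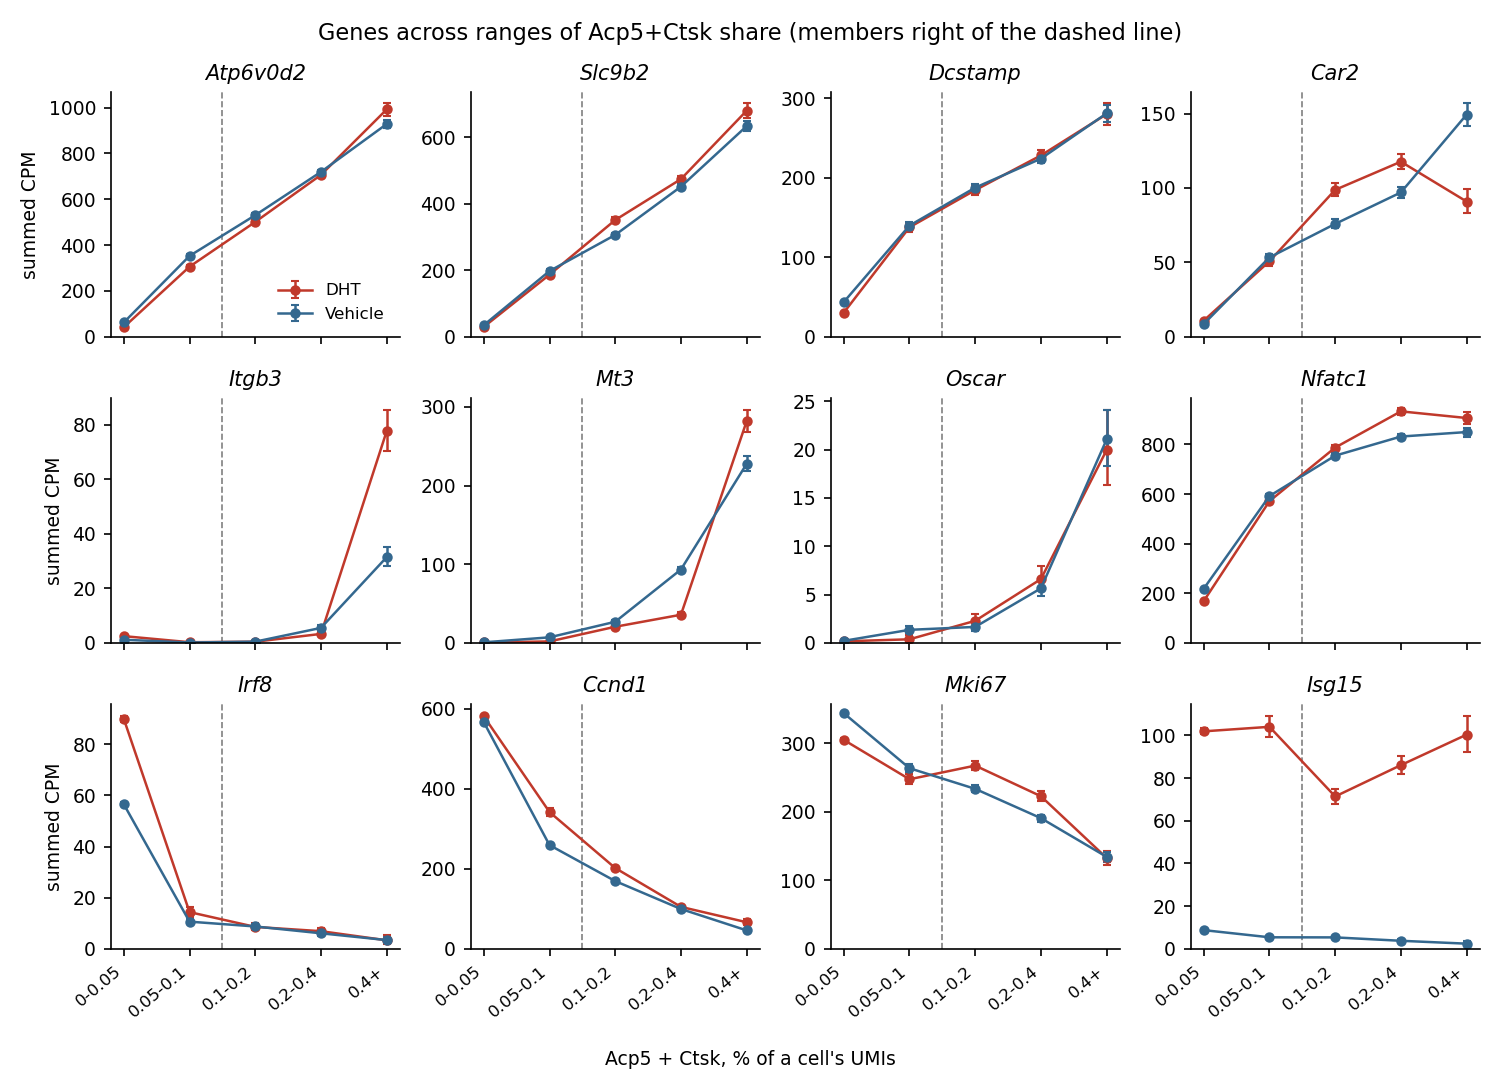
Summed CPM (vertical axes, with exact 95% Poisson intervals) of 12 genes in 5 ranges of the Acp5 and Ctsk share (horizontal axes, % of a cell's UMIs) for the DHT and Vehicle libraries, members right of the dashed lines. Atp6v0d2, Slc9b2 and Dcstamp climb steadily in both libraries, Itgb3, Mt3 and Oscar climb mostly at 0.4% and over, Irf8 and Ccnd1 decline, and Isg15 is high with DHT in every range.

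A few members held much of the signal of these late genes. The 4 DHT and 3 Vehicle members with a share of 1% or more had medians of 120788 and 161424 UMIs, and none was called a doublet. They held 318 of 479 Itgb3 UMIs (66.4%) with DHT and 184 of 493 (37.3%) with Vehicle, 47.9% and 17.3% of the Rab38 UMIs, 35.1% and 17.1% of those of Mt3, and 23.9% and 13.9% of those of Oscar. Itgb3 was at 634 and 390 CPM in these cells, Rab38 at 277 and 138 CPM, and Ctsk at 11691 and 10877 CPM. Of Nfatc1 they held only 1.06% and 0.452%. The level of Itgb3 over all DHT members is therefore mostly a level of a few cells. With Vehicle most Itgb3 UMIs lay in other members, as did most Rab38 UMIs in both libraries. The 1% limit was chosen after the values were seen.

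**Figure D3:**
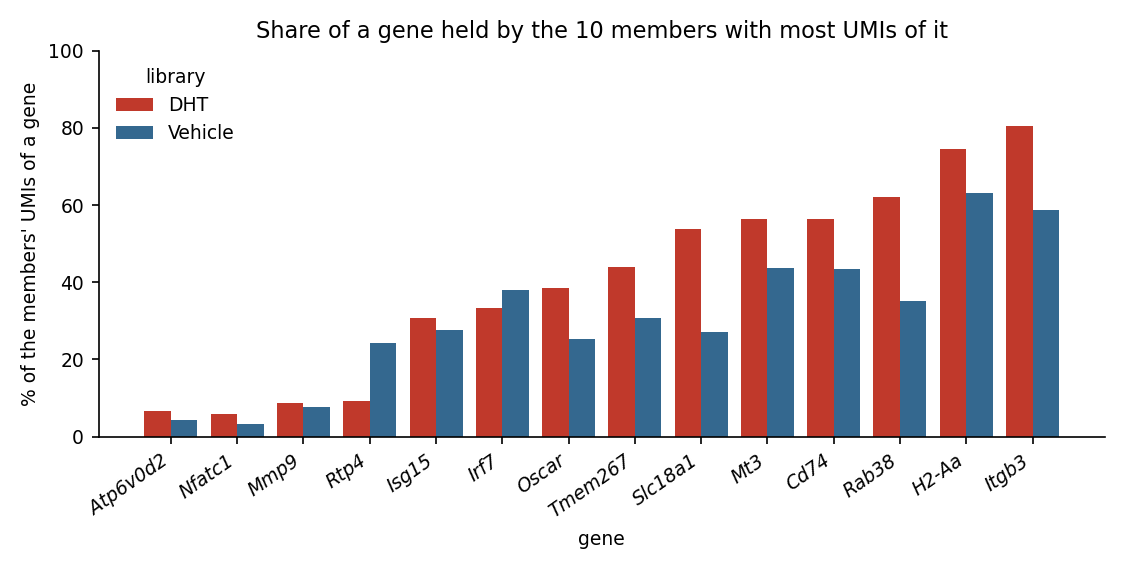
Percent of a gene's UMIs over all members of a library (vertical axis) that lie in the 10 members with most UMIs of it, for 14 genes (horizontal axis) in DHT and Vehicle. Itgb3 stands at 80.4% and 58.8%, H2-Aa at 74.5% and 63.1%, and Mmp9 and Atp6v0d2 below 10% in both libraries.

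The comparison the study was designed for is DHT against Vehicle. Among the 6420 genes with at least 20 CPM in members of either library, 63 (0.981%) reached 1.5-fold in the direction of DHT and 2 (0.0312%) at least 1.5-fold lower. With each member weighted equally the counts were 182 and 13, and 73 and 3 over members of at least 5000 UMIs. In comparison cells 244 of 6687 genes (3.65%) were higher and 8 (0.12%) lower. At the 2 CPM limit used for the lists, 2.01% of 10597 genes were higher in DHT members and 0.623% lower, and the median log2 ratio was 0.06. The 63 higher genes included 26 of the 36 genes of the 2 interferon lists with at least 20 CPM, 4 genes of MHC class II and 9 markers of neutrophils, monocytes or macrophages. The lower genes included the linker histone gene Hist1h1b, at 132.6 against 199.7 CPM.

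Interferon-stimulated genes gave the clearest difference. Irf7, the transcription factor that amplifies interferon production (chromosome 7, 141262706 to 141266481), was at 28.4 CPM with DHT (26.8 to 30.0) and 1.31 CPM with Vehicle (1.06 to 1.60), 21.7-fold higher (17.6 to 27.0). Isg15, a ubiquitin-like modifier (chromosome 4, 156199424 to 156200818), was at 80.7 CPM (78.1 to 83.4) and 4.37 CPM (3.90 to 4.88), 18.5-fold higher (16.5 to 20.8). Rtp4, an interferon-induced chaperone of receptors (chromosome 16, 23520291 to 23614222), was at 69.8 CPM (67.3 to 72.3) and 6.00 CPM (5.45 to 6.59), 11.6-fold higher (10.5 to 12.9). For all 3 the intervals of the libraries lay far apart. In comparison cells the log2 ratios were 3.44, 3.59 and 3.26, against 4.44, 4.21 and 3.54 in members.

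Others among the 12 highest genes were Ly6a (log2 ratio 3.08), Ddx58, the RNA sensor RIG-I (2.64), Slfn5 (2.59), Xaf1 (2.31), H2-Q7 (2.00), Trim30a (1.82), Parp14 (1.72) and Ifi27l2a (1.53). H2-Q7, the Slfn genes and Ifi27l2a have close copies, and their counts are uncertain. Over the type I list 48 of 51 measured genes were at least 1.5-fold higher with DHT and none lower, with a median of 1.53. The 3 others were Slfn9 (19.4 against 20.3 CPM), Tor3a (49.7 against 41.0 CPM) and Ifitm3 (808 against 543 CPM). In comparison cells the median of the same genes was 1.63. The list of interferon gamma-inducible and antigen processing genes had 11 of 20 higher, none lower and a median of 0.71. B2m, the light chain of MHC class I, was at 1059 against 586 CPM, and the immunoproteasome subunit Psmb8 at 161 against 139 CPM.

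Promoter windows of the higher genes are shown because the letters of an interferon response element recur in them. A pair of GAAA runs with any 2 bases between them, the core of the interferon response element, was searched on both strands. It was found in 13 of 52 higher genes with a window (25%) and in 19 of 43 genes of the type I list (44.2%). Over all genes it was found in 1079 of 27025 (3.99%), and in 3.44% of all windows. Other lists also held it above that share, in 2 of 12 V-ATPase genes (16.7%), 2 of 15 lysosome genes (13.3%) and 1 of 10 osteoclast transcription factors (10%). TCACGTG was found in 0 of the 52. Capitals mark the matches, merged where they overlap, and in Trim30a the match lies on the other strand. Isg15 (minus strand, chr4:156200830-156200941) holds 3 overlapping matches that end 56 bases before the start, and Bst2 (minus strand, chr8:71537542-71537647) holds 2 that end 114 bases before it. Slfn5 (plus strand, chr11:82951902-82952001) and Trim30a (minus strand, chr7:104465194-104465274) hold 1 each, ending 145 and 26 bases before the start.
Isg15: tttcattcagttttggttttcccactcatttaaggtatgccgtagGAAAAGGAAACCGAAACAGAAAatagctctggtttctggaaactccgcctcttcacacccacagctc
Bst2: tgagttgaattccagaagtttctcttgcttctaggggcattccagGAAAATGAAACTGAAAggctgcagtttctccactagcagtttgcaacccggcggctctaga
Slfn5: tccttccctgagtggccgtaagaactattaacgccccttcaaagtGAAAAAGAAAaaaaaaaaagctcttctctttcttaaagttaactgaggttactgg
Trim30a: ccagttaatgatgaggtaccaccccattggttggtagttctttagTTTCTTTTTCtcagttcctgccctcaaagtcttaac
Bst2, the antiviral protein tetherin, was at 236 CPM with DHT and 111 CPM with Vehicle, Slfn5 at 59.8 and 9.95 CPM, and Trim30a at 52.9 and 15.0 CPM. The Irf7 window has no match.

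The difference was spread over the members. Isg15 had a UMI in 429 of 771 DHT members and 175 of 1149 Vehicle members, and Rtp4 in 486 and 173. After thinning, Isg15 was found in 21.9% of DHT members (18.7 to 25.3%) and 1.80% of Vehicle members (1.09 to 2.80%), against 26.7% and 3.61% of comparison cells and 30.7% and 7.25% of neutrophil cells. No cell group here is known to lack Isg15, so a background share is not given for it. The summed level of the type I list per cell had a median of 2634 CPM in DHT members (quartiles 1707 and 4106) and 1296 CPM in Vehicle members (985 and 1759), so the upper quartile with Vehicle lay near the lower quartile with DHT. Without the 10 members of most UMIs the log2 ratio was 4.15 for Isg15, 4.54 for Irf7 and 3.81 for Rtp4.

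Along the ranges of Acp5 and Ctsk the summed interferon genes were lower in members than in the cells below, in both libraries. The summed level of the type I list was 4780.5 CPM with DHT in cells below 0.05%, 3856 CPM from 0.05 to 0.1%, and 3087, 2705 and 2568 CPM in the member ranges. With Vehicle it was 2114, 1603, 1531, 1358 and 1115 CPM. The DHT to Vehicle difference stayed within a narrow band, with median log2 ratios of 1.69, 1.90, 1.47, 1.55 and 1.71 from the lowest range to the highest. Irf7 was at 35.3, 18.1 and 34.2 CPM in the DHT member ranges and at 1.35, 1.37 and 0.993 CPM with Vehicle. Of the interferon ligand, receptor and kinase list none of 7 measured genes reached 1.5-fold. Ifnar1, a chain of the type I receptor, was at 38.1 and 33.9 CPM, and Ifnb1, interferon beta, was at 0 UMIs in the members of both libraries.

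**Figure D4:**
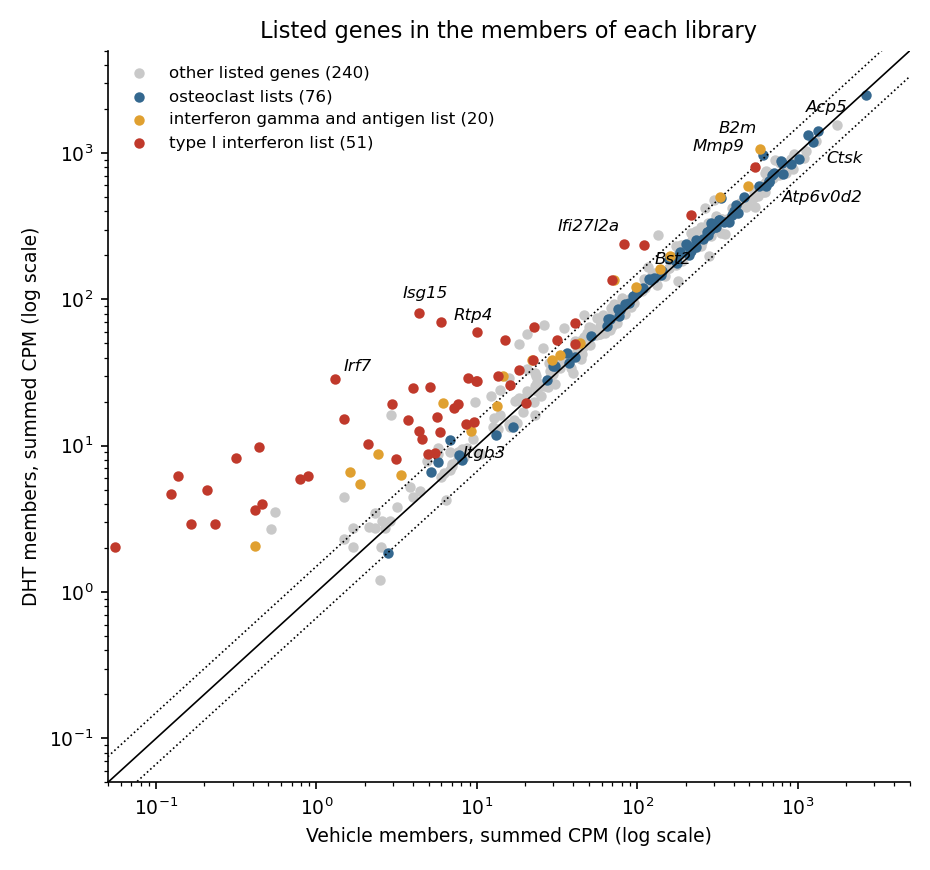
Summed CPM of the listed genes with at least 2 CPM in members of either library (the axes start at 0.05 CPM), Vehicle members (horizontal axis, log scale) against DHT members (vertical axis, log scale), with equality (solid) and 1.5-fold (dotted) lines. Genes of the type I interferon list lie above the upper dotted line in 48 of 51 cases. Atp6v0d2 lies close to the line of equality, and so do Acp5 and Ctsk, whose levels chose the members.

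Osteoclast genes differed little between DHT and Vehicle members, which were chosen by the same limit of Acp5 and Ctsk. Mmp9, a matrix protease that osteoclasts secrete (chromosome 2, 164940780 to 164955850), was the exception, at 966 CPM with DHT (957 to 976) and 612 CPM with Vehicle (606 to 617), 1.58-fold higher (1.56 to 1.60). It was higher in each member range, at 860, 1104 and 939 CPM against 484, 698 and 779 CPM, and in comparison cells, at 220 against 124 CPM. Neutrophils also make Mmp9, and neutrophil cells held it at 806 CPM with DHT and 578 CPM with Vehicle, below the members of the same library. Mmp14, a membrane-bound protease, was at 493 and 332 CPM (log2 ratio 0.57), just under the 1.5-fold limit. The other 12 measured genes of acid secretion and resorption lay between −0.16 (Cst3) and 0.36 (Rab38), and the list's median was 0.13.

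No V-ATPase gene and no listed transcription factor or fusion gene reached 1.5-fold. The V-ATPase median was 0.08, with a range from −0.17 (Atp6v0e) to 0.16 (Atp6v1b2), the transcription factor median 0.11 and the fusion median 0.02. Nfatc1 had a log2 ratio of 0.11 and Ocstamp of 0.17. Siglec15, a fusion-related lectin, had the lowest ratio of the fusion list (−0.58) at 1.86 against 2.78 CPM. In the receptor and signalling list no gene was 1.5-fold apart. RANK differed by −0.04, the M-CSF receptor by 0.09 and Trem2, at 134 against 179 CPM, by −0.42. Id3, an inhibitor of DNA binding, was the only repressor past the limit, at 4.27 against 6.44 CPM (−0.59).

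Itgb3 passed the limit in the adhesion list, at 11.0 CPM with DHT (10.03 to 12.02) and 6.80 CPM with Vehicle (6.21 to 7.42), a log2 ratio of 0.69. It did not hold as a difference of members as a whole. A single DHT member held 177 of the 479 UMIs (37.0%), and without the 10 members of most Itgb3 UMIs in each library the log2 ratio was −0.38. Itgb3 was found in 57 DHT members and 91 Vehicle members, 7.39% and 7.92%.

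The G2 and M phase list showed a small one-sided difference. All 24 G2 and M phase genes were above 0 with DHT, none by 1.5-fold, with a median log2 ratio of 0.28 against −0.13 for the same genes in comparison cells. Ckap2 was at 31.3 against 23.0 CPM (0.45), Nusap1 at 74.7 against 56.4 CPM (0.40) and Aurkb at 28.7 against 28.0 CPM (0.03). The median was 0.32, 0.23 and 0.03 in the 3 member ranges. After thinning, 90.4% and 90.2% of members held a UMI of the list, and Mki67 was found in 45.04% and 40.9%. For S phase genes the median was −0.09, with 6 of 22 above 0. Cdkn1a, the cell cycle inhibitor p21, was at 167 against 117 CPM (0.52). The list of NRF2 targets and iron handling leaned the other way, with a median of −0.20, Blvrb at 197 against 279 CPM (−0.50) and Nqo1 at 16.2 against 23.1 CPM (−0.51). Oxidative phosphorylation (−0.05) and glycolysis (0.04) had medians near 0.

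**Figure D5:**
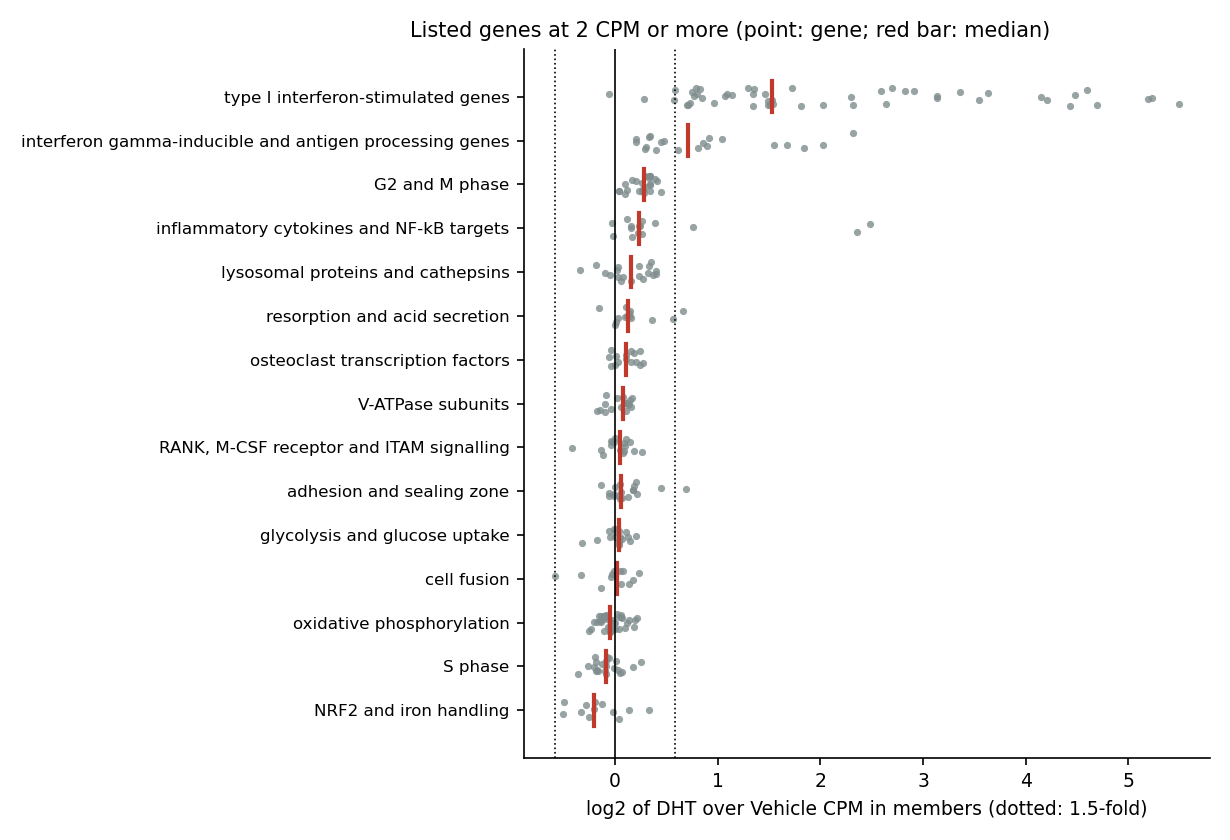
Log2 ratio of DHT over Vehicle members (horizontal axis) for the listed genes with at least 2 CPM (points) and their median (red bars) in 15 gene lists (vertical axis), with 1.5-fold marked by dotted lines. The type I interferon list has a median of 1.53, all 24 points of the G2 and M phase list lie right of 0 and left of the upper dotted line, and the median of the V-ATPase list is 0.08.

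Inflammatory genes had a median of 0.23, with 3 of 15 higher. Il1rn, the interleukin-1 receptor antagonist, was at 78.3 against 46.3 CPM (0.76) and Tnf at 11.2 against 9.52 CPM (0.23). Ccl2, a monocyte chemokine, was at 16.3 against 2.92 CPM (2.48), with 302 of the 712 DHT UMIs in 1 member, and without the 10 members of most UMIs the log2 ratio was 1.51.

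Markers of neutrophils, monocytes and macrophages were also higher in DHT members, and those of granulocyte-monocyte progenitors were not. The progenitor list had 0 of 5 genes at 1.5-fold in either direction, a median of −0.14 and summed levels of 96.1 against 107 CPM. By range of Acp5 and Ctsk the sum was 112, 98.1 and 26.9 CPM with DHT and 217, 13.9 and 11.5 CPM with Vehicle. It was thus lower with DHT only in the lowest member range, and in comparison cells the median of the list was 1.12. Of 10 neutrophil markers 5 reached 1.5-fold in the direction of DHT and 0 in the other, among them S100a8 (420 against 264 CPM), Lcn2 (64.1 against 35.1 CPM) and Ltf (21.98 against 12.2 CPM). Of monocyte markers 4 of 5 were higher, with F13a1 at 20.003 against 9.69 CPM, and of macrophage markers 6 of 9, with C1qa at 4.50 against 1.47 CPM and Apoe at 46.2 against 25.9 CPM. Members of fewer than 5000 UMIs carried more of this RNA, with C1qa at 105 CPM (DHT) and 16.2 CPM (Vehicle) against 4.12 and 1.45 CPM in deeper members. Of the S100a8 UMIs, 34.6% (DHT) and 48.7% (Vehicle) lay in 10 members of each library. Without members of fewer than 5000 UMIs, a setting added after the data were seen, 62 genes were at least 1.5-fold higher with DHT and 47 genes of the type I list. The part of other cells' RNA in the differences between libraries was not tested.

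The MHC class II genes H2-Aa, H2-Eb1, H2-Ab1 and Cd74, which present antigen, were higher in DHT members but hardly differed in comparison cells. H2-Aa was at 58.2 against 20.5 CPM in members (log2 ratio 1.51) and at 120 against 117 CPM in comparison cells (0.04), and Cd74 at 274 against 134 CPM (1.03) and 347 against 308 CPM (0.17). Few members carried them: 10 DHT members held 74.5% of the H2-Aa UMIs and 10 Vehicle members 63.1%, and without these the log2 ratio was 0.98 for H2-Aa and 0.66 for Cd74. By range of Acp5 and Ctsk, the summed level of the dendritic cell list was 119, 368 and 2032 CPM with DHT and 231, 148 and 258 CPM with Vehicle, so in the lowest member range it was lower with DHT. Flt3, Xcr1, Clec9a and Cd209a, other markers of that list, were between 0 and 0.427 CPM in the members of both libraries. Zbtb46, also of the list, was above them, with 47 UMIs in DHT members and 82 in Vehicle members, against 11 and 31 of Flt3.

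Tmem267, a membrane protein gene, was at 92.4 CPM in DHT members and 35.2 CPM in Vehicle members (log2 ratio 1.39) and at 7.89 and 8.40 CPM in comparison cells. It had UMIs in 327 DHT and 453 Vehicle members, 43.9% and 30.8% of them in 10 members each, and a log2 ratio of 1.09 without those. Of the 63 higher genes, 54 kept a ratio of at least 1.5-fold without the 10 members that held most of their UMIs. The 9 others were Dck, F13a1, H2-K1, H2-T23, Il31ra, Mitd1, Ms4a7, Slc18a1 and Taco1. The median of the 63 genes had 11.1% of its DHT UMIs in 10 members, and 7 genes had over 50%.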

How the data were processed

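The 2 single-cell libraries were made with droplet 3′ v3.1 chemistry, per the labels' protocols. The deposited values are raw UMI counts per gene and barcode, which the authors made with Cell Ranger 7.0.1, per the submitters' processing notes (the version also stands per the file headers). The notes name GRCh38 and mm10 without a role. How barcodes were called and whether introns or strand were counted is not given in the sources used here. Of 32285 genes, 32235 (99.8%) matched GENCODE M21 (GRCm38) by identifier.

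Counts were filtered by the limits above, summed over the cells of each library and scaled to CPM. Intervals are exact Poisson (CPM), Clopper-Pearson (shares) and conditional binomial (ratios). A gene counted as different at 1.5-fold between libraries, or at 2-fold in both libraries against comparison cells, with at least 20 CPM in 1 or both groups (2 CPM within lists). A level of 0 was set to a floor of 3 counts for ratios. Doublets called by Scrublet (expected rate 0.06) were kept, 203 in DHT and 156 in Vehicle. Thinning used seed 1.

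Named genes are the 5 markers, the 12 highest and lowest ratios of DHT over Vehicle, the 20 highest over comparison cells, the extremes of 21 gene lists, and genes fixed by name, without mitochondrial, ribosomal, predicted and Y-linked genes; others named were chosen after their values were seen. A further 12 lists held markers of other cells. The members and lists were chosen with earlier results of these data known. On simulated counts for 6341 genes, the 1.5-fold rule called 100% of genes raised 2-fold, 98% of genes lowered 2-fold and 0% of 6142 unchanged genes. The simulated counts held counting error alone, with no spread between cells, dishes or libraries. They check the arithmetic of the rule and give no rate of false calls for these data. Alternatives changed the cell limits, the marker limits, doublets, depth, scaling (TMM in edgeR 4.0.16 under R 4.3.3) and thresholds. Python 3.11.15, numpy 2.4.6, scipy 1.17.1, pandas 2.3.3, scanpy 1.11.5 and matplotlib 3.10.9 were used. Some genes are not reported here.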

Additional observations from a re-analysis of the deposited data

Results flagged for a closer look

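Barcodes outside the cell limits also met the marker rule. There were 271 in DHT (9.39% of 2887 such barcodes, 8.35 to 10.5%) and 153 in Vehicle (8.12% of 1884, 6.93 to 9.45%). Their median depth was 644 and 675 UMIs, and 34 and 25 of them exceeded the mitochondrial limit. They enter no result above.

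Slc18a1, a vesicular monoamine transporter, was higher with DHT in members and lower with DHT in comparison cells. The log2 ratio was 0.70 in members (24.6 against 15.1 CPM) and −0.81 in comparison cells (1.63 against 2.85 CPM), and the difference was not tested. A single DHT member held 195 of the 1072 UMIs (18.2%), and without the 10 members of most UMIs in each library the log2 ratio in members was 0.04.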

How the results depend on the processing

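No paired analysis was possible because each group has 1 library, and for the same reason no replicate could be left out. The share of members in DHT and Vehicle was 14.8% and 20.1% at a limit of 0.05% Acp5 and Ctsk, 4.49% and 6.40% at 0.2%, 8.41% and 12.3% with at least 3 such UMIs, and 12.995% and 15.1% among cells below 3% S100a8 and S100a9. The DHT share was 8.95% with at least 2000 UMIs and 1000 genes and 8.51% with S100a8 and S100a9 below 1%, and the Vehicle share was 14.2% with the rule on thinned cells. Genes at least 1.5-fold higher with DHT, 63 as reported, numbered 182 when cells were weighted equally (a mean of CPM per cell), 99 at 10 CPM, 29 at 50 CPM and 26 at 2-fold. With equal weights over members of at least 5000 UMIs they numbered 73. Genes at least 1.5-fold lower, 2 as reported, numbered 5 with a mitochondrial limit of 5%, 5 at 0.2% Acp5 and Ctsk, 13 with equal weights, 7 without the 10 members of most UMIs of a gene, 1 with the deeper library thinned, 6 at 10 CPM, 1 at 50 CPM and 0 at 2-fold. Genes at least 2-fold higher than in comparison cells, 175 as reported, numbered 31 against cells from 0.05 to 0.1% and 506 at 1.5-fold. Higher genes of the type I list numbered between 37 and 49. Itgb3 reversed, from a log2 ratio of 0.69 to −0.13 with a mitochondrial limit of 5% and −0.38 without the 10 members of most UMIs. Of 49 named genes at least 1.5-fold apart, 48 kept their direction in all 21 settings and 37 stayed at least 1.5-fold apart. The settings with at least 5000 UMIs and without the 10 members were chosen after seeing the data. Where a value moved, the cause was not tested beyond what the setting itself changes. Genes of few UMIs, such as Calcr, could not be compared at this depth.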

Other observations

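Some members carried MHC class II genes at a high level. H2-Aa, H2-Ab1, H2-Eb1 and Cd74 together gave at least 0.1% of UMIs, a limit chosen after the values were seen, in 27 of 635 DHT members of at least 5000 UMIs (4.25%, exact binomial interval 2.82 to 6.13%) and in 37 of 1055 Vehicle members (3.51%, 2.48 to 4.80%). They held 86.7% and 76.6% of the members' class II UMIs. In 4 and 6 members the share lay from 0.08 to 0.1%, and in 2 and 7 from 0.1 to 0.12%. Scrublet called 1 of the DHT cells and 0 of the Vehicle cells as doublets.

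Osteoclast genes differed in direction between these cells and the other members. Atp6v0d2 was at 765 CPM with DHT and 653 CPM with Vehicle, against 638 and 663 CPM in the other members and 54.8 and 73.5 CPM in comparison cells of high class II. Nfatc1 was at 934 and 846 CPM against 858 and 798 CPM. Acp5 was at 3047 and 1599 CPM against 1327 and 1330 CPM, Dcstamp at 316 and 337 CPM against 208 and 211 CPM, and Mmp9 at 399 and 318 CPM against 997 and 623 CPM. Bcl2a1b, a survival gene of the Bcl2 family with close copies, was at 169 and 69.6 CPM against 7.33 and 7.498 CPM. Flt3 and Ccr7, genes of dendritic cells, were at 0 and 3.37 CPM and at 0 and 13.1 CPM, against 84.1 and 58.5 CPM and 212 and 81.2 CPM in comparison cells of high class II. Itgax and Zbtb46, further dendritic cell genes, were at 11.4 and 15.7 CPM and at 8.07 and 2.62 CPM, above the other members (1.31 and 1.68 CPM, and 0.726 and 1.06 CPM) and below those comparison cells (49.6 and 73.5 CPM, and 38.2 and 42.7 CPM). Ciita, the activator of class II transcription, was at 5.22 and 4.49 CPM against 0.169 and 0.143 CPM in the other members and 98.6 and 109 CPM in those comparison cells. Isg15 was at 385 CPM with DHT and 7.48 CPM with Vehicle in the members of high class II, against 65.1 and 4.24 CPM in the other members. These are summed levels. With DHT the median per cell was 124 CPM in the 27 members of high class II and 19.9 CPM in the other members.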
